A study of Mus musculus with 12 samples.

Results

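The F-box proteins and cullins were followed in whole blood of mice kept at normal oxygen (NX), after chronic hypoxia (CH) and after recovery from it (REC). Members were the genes whose symbol in the platform annotation, given by a probe set that names a single gene, starts with Fbxo, Fbxl or Fbxw and a number, together with the cullins Cul1, Cul2, Cul3, Cul4a, Cul4b, Cul5 and Cul7 and their partners Skp1, Skp2, Rbx1 and Dcun1d1. This gave 78 genes on 144 probe sets, of 18194 genes with a single-gene probe set and 45101 probe sets on the array. The 78 genes were 32 Fbxo, 17 Fbxl and 18 Fbxw genes and 11 cullins and partners. Among the 17 is Fbxl12os, whose symbol meets the rule although its suffix stands for a transcript from the strand opposite Fbxl12. It therefore may not encode an F-box protein, and it counts in every total of 17 and 78. Fbxl12os was called in no comparison. A probe set is a group of short oligonucleotides that read 1 transcript, and each gene was represented by its brightest one.

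The mice were C57Bl/10 animals, aged 3 months when obtained, with no transgene or deletion named in the labels. Each of the 12 arrays held the blood of a different mouse. NX mice (n = 4) breathed 21% oxygen. CH mice (n = 4) spent 14 days in hypoxia, with the oxygen lowered in steps to 8% at harvest. REC mice (n = 4) went through the same 14 days of hypoxia and then 14 days at 21% oxygen. A single age is given for all groups, although REC mice had 14 further days after hypoxia, so age at harvest may differ. One label field calls the CH mice normoxic, against their titles, and was not followed. Late erythroid, B cell, T cell, neutrophil and platelet markers were all measured in the samples, and the hepatocyte markers stayed at a summed signal of 68.2 to 348 on all arrays.

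Cullin-RING ligases attach ubiquitin to proteins and so mark many of them for the proteasome. A cullin is the scaffold of such a ligase. A RING protein, Rbx1 or Rnf7, binds one end of it and brings in the charged E2 enzyme, while an adaptor and a substrate receptor bind the other end. In the Cul1 ligases, called SCF, the adaptor is Skp1 and the receptor is an F-box protein, so that the choice of F-box protein sets what is ubiquitinated. Cul4a and Cul4b use Ddb1, Cul2 and Cul5 use the elongins B and C, and Cul3 uses BTB proteins. All are switched on when the ubiquitin-like protein Nedd8 is attached to the cullin, a step that Dcun1d1 assists, and switched off when the COP9 signalosome removes it. In blood, ubiquitin ligases take part in the remodelling of reticulocytes, the youngest circulating red cells, which still hold RNA.

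In CH, the largest increases among the members were those of Fbxo7, Fbxo9 and Dcun1d1, by about the same factor of 6.65-fold to 7.77-fold, and Cul4a rose while its paralog Cul4b fell. The SCF scaffold Cul1 fell, and so did Fbxw11, the receptor known as β-TrCP2. After REC, limma called 6 members lower than in NX (7.69%, against 1.79% of all genes) and 0 higher (against 2.50%), but 0 lower and 19 higher with the arrays scaled on their hybridization controls. Against NX, CH blood had 11 of the 78 members higher (14.1%) and 13 lower (16.7%). Such a call needs a Benjamini-Hochberg adjusted p under 0.05, from limma with every probe set of the array, and no less than a 2-fold change on the log2(signal + 16) scale, which understates changes of low signals. Among all genes, 9.08% were called higher and 19.5% lower, so the members' share was above the background for higher calls and below it for lower calls, with no test of either. With each array scaled instead on 18 probe sets of hybridization controls, transcripts added in a fixed amount, 3 members were higher and 32 lower. No share of all genes stands beside such counts in any comparison. They are therefore not read as particular to the members under this scaling. Under it the median over all probe sets of the log2 change in CH moved from 0.11 to -0.71, and the controls themselves had a mean log2 signal of 12.3 to 13.1 on the NX arrays, 14.0 to 14.6 on the CH arrays and 11.6 to 12.2 on the REC arrays. Every change below is therefore relative to the bulk of the array's signal. In whole blood, fewer cells of a type and less RNA per cell cannot be told apart, nor can more of either.

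The members' log2 changes in CH ranged from -2.16 to 2.96 with a median of 0.18, against 0.05 for all genes. Of the 78, 13 had all CH arrays above all NX arrays and 14 had them all below, where 11.0% and 21.4% of all genes did. In 23 members, called dim here, the mean signal was under 50 in every group, and 2 of the 11 higher members were among them. The 55 brighter members had 9 higher (16.4%, against 12.2% of all brighter genes) and 13 lower (23.6%, against 29.4%). A gene could pass this limit through a single group. Fbxw24 did so through CH, with means of 23.9 in NX, 87.4 in CH and 13.5 in REC. The brighter shares therefore depend in part on the changes they describe. By family, 5 Fbxo genes were higher and 5 lower of 32, 4 Fbxw genes were higher and 1 lower of 18, and 2 cullins or partners were higher and 2 lower of 11. Of the 17 Fbxl genes, limma called 0 higher and 5 lower, with 7 at an unadjusted p under 0.05 in either direction. Over all members 37 had such a p, and no share of all genes with such a p is given beside either count. Whether the families differ was not tested.

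**Figure D1:**
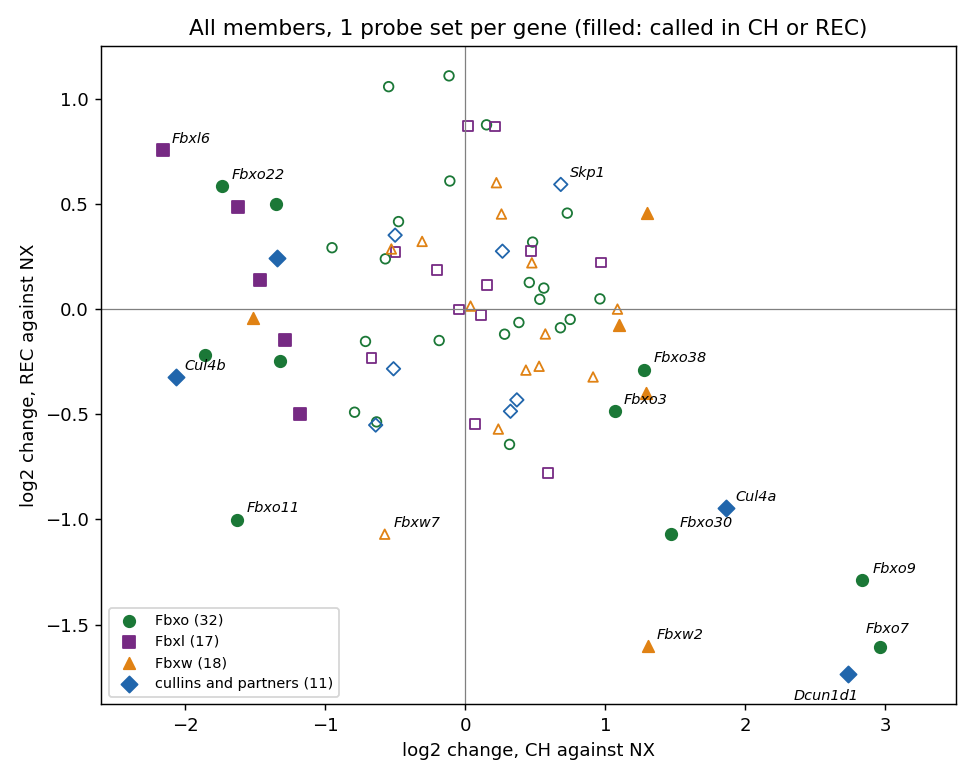
Log2 change against NX of each of the 78 members in CH (horizontal axis) and in REC (vertical axis), as limma's difference of mean log2(signal + 16), with 1 point per gene; shapes give the family and filled points are called in at least 1 of these 2 comparisons. Fbxo7, Fbxo9 and Dcun1d1 lie at the lower right, at 2.73 to 2.96 in CH and -1.74 to -1.29 in REC; both axes use the same NX arrays, and with the arrays scaled on their hybridization controls the REC calls of all 3 were lost.

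The starts of 4 genes are shown because these genes carry the largest increases with a RefSeq promoter in the table used, Dcun1d1, Fbxo9 and Cul4a, and the opposite change of a paralog, Cul4b. Each line is the 250 bases before the most upstream RefSeq start, 5′ to 3′ on the strand of the gene in GRCm38.p6, with capitals for matches to the motifs searched. All were searched on both strands. AGATAA and its variant with T as the first letter stood for GATA factors. The E-box was searched as CACGTG. The core of the hypoxia response element was searched as ACGTG, which the E-box also contains. The letters for ATF4 were TGATGNAA. Those for AP-1 and NF-E2 were TGACTCA. Dcun1d1 is at chr3:35932967-35933216 on the minus strand, Fbxo9 at chr9:78109066-78109315 on the minus strand, Cul4a at chr8:13105373-13105622 on the plus strand and Cul4b at chrX:38576197-38576446 on the minus strand.
Dcun1d1: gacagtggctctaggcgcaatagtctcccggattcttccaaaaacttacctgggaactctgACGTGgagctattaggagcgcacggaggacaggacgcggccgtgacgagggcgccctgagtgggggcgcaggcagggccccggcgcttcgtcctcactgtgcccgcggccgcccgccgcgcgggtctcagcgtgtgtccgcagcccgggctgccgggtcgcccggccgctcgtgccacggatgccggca
Fbxo9: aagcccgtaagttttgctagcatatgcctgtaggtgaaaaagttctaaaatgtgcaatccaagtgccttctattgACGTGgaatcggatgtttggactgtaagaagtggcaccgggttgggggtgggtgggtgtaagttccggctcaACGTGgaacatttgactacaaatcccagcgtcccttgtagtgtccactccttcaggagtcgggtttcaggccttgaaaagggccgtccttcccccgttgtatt
Cul4a: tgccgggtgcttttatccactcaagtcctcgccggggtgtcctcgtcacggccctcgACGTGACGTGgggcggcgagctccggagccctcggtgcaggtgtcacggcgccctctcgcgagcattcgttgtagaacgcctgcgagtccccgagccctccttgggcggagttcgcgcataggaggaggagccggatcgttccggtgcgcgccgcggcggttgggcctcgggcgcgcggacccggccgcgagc
Cul4b: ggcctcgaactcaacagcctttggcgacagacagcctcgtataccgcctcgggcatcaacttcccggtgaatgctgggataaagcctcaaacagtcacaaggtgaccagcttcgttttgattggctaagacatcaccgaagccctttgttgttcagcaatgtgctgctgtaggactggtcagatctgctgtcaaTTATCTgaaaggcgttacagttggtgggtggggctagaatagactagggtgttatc
ACGTG stood once in the window of Dcun1d1, 189 bases before the start, and at 2 places each in those of Fbxo9 (175 and 103 bases) and Cul4a (193 and 188 bases). The Cul4b window held the GATA letters on the other strand, TTATCT, 56 bases before the start, and none of the other letters. Over the windows of 250 bases before and 50 after each start, ACGTG was found in 4 of the 7 higher members with a promoter in the table (57.1%), 4 of the 9 lower members (44.4%), 20 of all 59 members matched (33.9%) and 21.8% of 27025 genes. The GATA letters were in 1 of the 7 higher (14.3%), 2 of the 9 lower (22.2%), 9 of the 59 (15.3%) and 21.0% of all genes. CACGTG was in 1 of 7, 2 of 9, 5 of 59 (8.47%) and 8.09% of all. TGATGNAA was in 0 of 7, 0 of 9, 1 of 59 (1.69%) and 4.51% of all, and TGACTCA in 0 of 7, 1 of 9, 4 of 59 (6.78%) and 5.95% of all. A match describes letters in a window and no binding was measured, and a gene can have several windows. The 7 higher members had 12 windows and the 9 lower members 13, where the 27025 genes had 32851. A gene with more windows had more chances of a match, so the shares of these sets are not on equal terms.

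Fbxo7 is an F-box protein tied to the clearance of mitochondria, and its human gene is mutated in a form of parkinsonism. Its signal was 520, 1148, 841 and 929 in the NX mice, 4314, 6736, 5516 and 11366 in the CH mice and 291, 226, 276 and 253 in the REC mice. The 3 groups did not overlap, with CH highest and REC lowest. The log2 change, here always the difference of mean log2(signal + 16), was 2.96 in CH (standard error 0.31, adjusted p = 1.5e-05 from limma, 7.77-fold), and in REC -1.61 (standard error 0.31, adjusted p = 0.0097).

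Fbxo9 is a receptor known for targeting Tel2 and Tti1, proteins of the mTOR pathway. It gave 1816, 3230, 2712 and 2848 in NX, 12878, 19102, 17118 and 28183 in CH, and 1681, 851, 739 and 1162 in REC. All CH mice lay above all NX mice, and all REC mice lay below them. The log2 change was 2.83 in CH (standard error 0.32, adjusted p = 2.25e-05 from limma) and -1.29 in REC (standard error 0.32, adjusted p = 0.0306). Its other probe set was also called higher in CH, at 3.20, and lower in REC, at -1.55.

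Dcun1d1, which promotes the transfer of Nedd8 to cullins, gave 864, 1912, 1394 and 1324 in NX, 5971, 9629, 9380 and 11531 in CH, and 512, 320, 359 and 374 in REC. Again the groups stood apart. The log2 change was 2.73 in CH (standard error 0.29, adjusted p = 1.48e-05 from limma) and -1.74 in REC (standard error 0.29, adjusted p = 0.00391). Of its 5 probe sets, 4 were called higher in CH, at 2.50 to 2.99, and lower in REC, at -1.74 to -1.26, while the fifth had -0.54 in CH and -0.32 in REC and was not called. Fbxo7, Fbxo9 and Dcun1d1 kept their CH calls under every alternative tried, at 1.35, 1.22 and 1.12 with the hybridization control scaling.

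**Figure D2:**
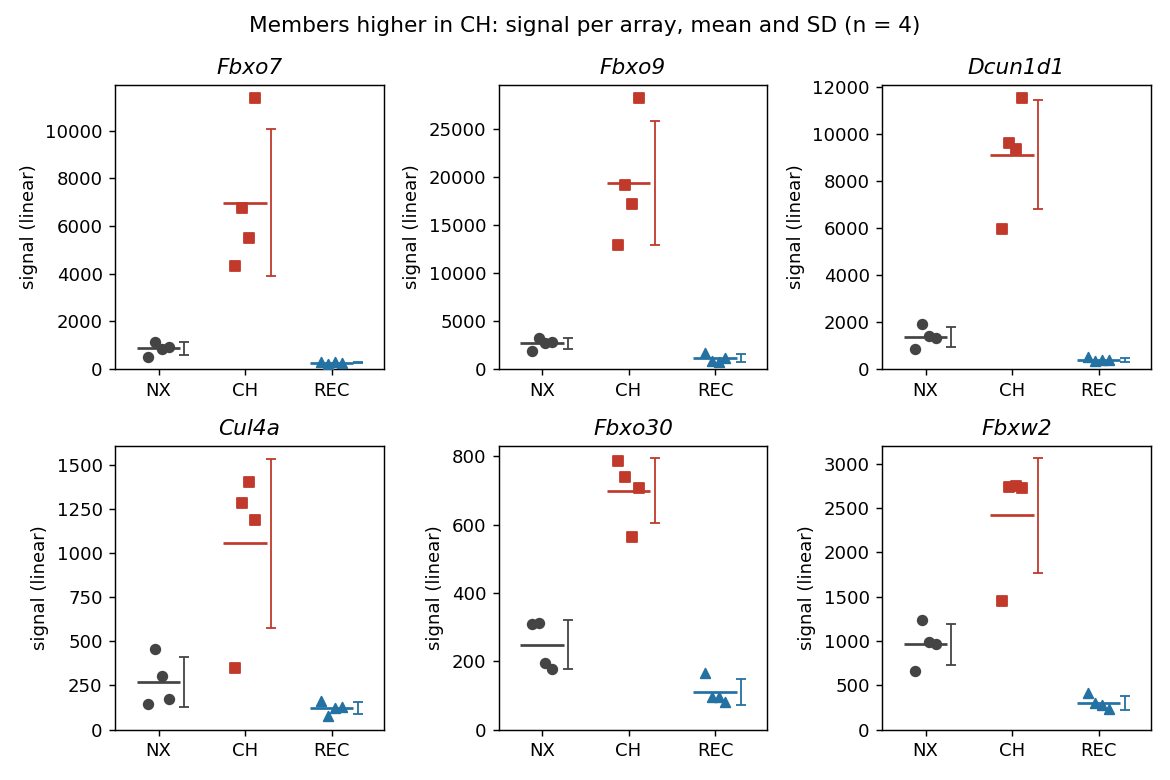
Signal (linear axis from 0) of 6 members called higher in CH, with a point for every array (NX circles, CH squares, REC triangles; 4 mice per group), a line at the group mean and a bar for the SD. Fbxo7, Fbxo9 and Dcun1d1 rise from group means of 859, 2651 and 1373 in NX to 6983, 19320 and 9128 in CH; Cul4a and Fbxw2 each have 1 CH array apart from the other CH arrays, and with the hybridization control scaling the log2 changes of Cul4a, Fbxo30 and Fbxw2 in CH were 0.29, -0.09 and -0.30, with no call.

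Cul4a, the scaffold of ligases that use Ddb1, gave 147, 456, 303 and 172 in NX, 347, 1283, 1401 and 1189 in CH, and 163, 78.7, 121 and 127 in REC. CH replicate 1 lay among the NX values, and the other CH mice above all of them. The log2 change in CH was 1.86 (standard error 0.44, adjusted p = 0.00524 from limma), but 0.29 with the hybridization control scaling. In REC it was -0.95 (adjusted p = 0.275), not called.

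Fbxo30, known from muscle wasting, gave 308, 312, 196 and 177 in NX, 785, 740, 564 and 707 in CH, and 166, 96.0, 95.8 and 82.3 in REC. The groups did not overlap. The log2 change was 1.47 in CH (standard error 0.27, adjusted p = 0.00102 from limma) and -1.07 in REC (adjusted p = 0.0346), and turned to -0.09 in CH with the hybridization control scaling. All 4 of its probe sets were called higher in CH, the others at 1.82, 2.81 and 3.09, so the brightest one had the smallest change.

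Fbxw2 gave 664, 1234, 986 and 962 in NX, 1450, 2739, 2750 and 2732 in CH, and 416, 297, 273 and 235 in REC. Each CH mouse was above each NX mouse and each REC mouse below. The log2 change came to 1.30 in CH (standard error 0.29, adjusted p = 0.0035 from limma), -0.30 with the hybridization control scaling, and -1.60 in REC (adjusted p = 0.00608). Of its 7 probe sets only the brightest was called in CH, and the mean over all 7 changed by 0.09.

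Fbxo38, a receptor that targets the inhibitory T cell molecule PD-1, gave 446, 469, 437 and 264 in NX, 924, 925, 789 and 1358 in CH, and 325, 269, 357 and 336 in REC. It rose in CH by 1.28 (standard error 0.25, adjusted p = 0.00172 from limma), -0.30 with the hybridization control scaling, and its REC change of -0.29 was not called. Fbxo3, known to act on the F-box protein Fbxl2, gave 669, 256, 348 and 459 in NX, 799, 823, 983 and 892 in CH, and 238, 287, 283 and 350 in REC. Its log2 change of 1.07 in CH (standard error 0.28, adjusted p = 0.00933 from limma) was 0.85 without NX replicate 2, 0.99 without NX replicate 3, 0.91 after centring on medians and -0.50 after scaling on the hybridization controls, and was no longer called in any of these. Only 1 of its 5 probe sets was called.

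The remaining higher members were Fbxw22, Fbxw24 and Fbxw27, of a group of near-identical Fbxw genes that has expanded in rodents, so that a probe set may read several of them. Fbxw24 gave 42.2, 13.7, 19.6 and 20.1 in NX, 150, 85.3, 82.4 and 31.9 in CH, and 18.3, 15.8, 9.64 and 10.3 in REC, with a log2 change in CH of 1.29 (adjusted p = 0.0104 from limma) and CH replicate 4 within the NX range. Fbxw22 and Fbxw27 were dim and changed by 1.29 and 1.1. The call of Fbxw22 was lost with quantile normalization (adjusted p = 0.055), and that of Fbxw27 with quantile normalization (0.96) and median centring (0.94). Fbxw27 fell short of the 2-fold limit without NX replicate 2 (0.98) or CH replicate 3 (0.98). With the hybridization control scaling Fbxw22, Fbxw24 and Fbxw27 had 0.50, 0.19 and 0.19.

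These increases went with those of the late erythroid markers. Their 9 measured genes of 12, among them Alas2 and Slc4a1, had a summed signal of 33971 to 52699 in NX, 150735 to 239066 in CH and 8474 to 24877 in REC. All 9 were higher in CH and 6 lower in REC, with median log2 changes of 3.07 and -1.49. With quantile normalization 6 were higher in CH and 5 lower in REC, and Alas2 (0.034), Bpgm (0.072) and Slc4a1 (0.90) had no call in CH. Scaled on the hybridization controls, 7 were higher in CH and 4 lower in REC. Among the CH arrays, replicate 4 had the highest of these sums (239100) and the highest CH signal in 5 of the 11 higher members, with Fbxo7, Fbxo9 and Dcun1d1 among them. Replicate 1 had the lowest sum (150700) and the lowest CH signal in 7 of the 11. Against that order, Fbxo30 (785) and Fbxw24 (150) were highest in replicate 1, and Fbxw24 (31.9) and Fbxw27 (29) were lowest in replicate 4. Cul4a, Fbxw2, Fbxo3 and Fbxw27 were highest in replicate 3, where Fbxo30 and Fbxo38 were lowest. The platelet markers also had their highest CH sum in replicate 4 (46410). The part of erythroid cells in the members' changes was not tested.

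Among the members that fell in CH, Cul4b, the X-linked paralog of Cul4a, gave 707, 674, 658 and 622 in NX, 204, 177, 246 and 46.1 in CH, and 492, 564, 453 and 619 in REC. The CH mice lay well below both other groups. On the log2 scale the change was -2.07 in CH (standard error 0.36, adjusted p = 0.000747 from limma) and -0.32 in REC (adjusted p = 0.729). Its second probe set was also lower, at -1.60.

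Cul1, the scaffold of SCF ligases, has a single probe set. It gave 416, 677, 552 and 485 in NX, 154, 155, 238 and 263 in CH, and 594, 555, 607 and 752 in REC. No CH mouse reached the lowest NX mouse, and the REC mice overlapped NX. Fitted with limma, it had a log2 change of -1.34 in CH (standard error 0.25, adjusted p = 0.00111 from limma) and 0.24 in REC (adjusted p = 0.699).

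Fbxw11 is a receptor for β-catenin and for IκBα, the inhibitor of NF-κB. It gave 1838, 2353, 2201 and 2392 in NX, 508, 525, 1096 and 1096 in CH, and 2259, 1952, 2034 and 2252 in REC. The fitted log2 change was -1.52 in CH (standard error 0.28, adjusted p = 0.00109 from limma) and -0.04 in REC. Of its 5 probe sets 3 were called lower in CH, at -1.74 to -1.52, and the other 2, both dim, had 0.20 and 0.46. One of the 3 was also lower in REC, at -1.33.

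Fbxl6 had the largest decrease, from 57, 133, 115 and 104 in NX to 4.21, 7.40, 22.2 and 7.67 in CH, which limma fitted as -2.16 on the log2 scale (standard error 0.28, adjusted p = 7.21e-05). In REC it gave 175, 192, 199 and 145, all above NX, at a log2 change of 0.75 that was not called (adjusted p = 0.152). Fbxo22, a receptor for histone demethylases, gave 339, 313, 418 and 323 in NX, 108, 68.7, 156 and 61.1 in CH, and 493, 604, 574 and 450 in REC. It followed the same order, at -1.74 in CH (adjusted p = 0.000306 from limma) and 0.58 in REC (adjusted p = 0.274). Over the mean of its 3 probe sets the CH change was -0.65 and not called.

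Fbxo11, the receptor for Bcl6, a repressor of germinal centre B cells, was the one member lower in both. It gave 729, 595, 733 and 587 in NX, 239, 196, 272 and 129 in CH, and 271, 412, 259 and 363 in REC. The NX mice stood above all others. The log2 change came to -1.63 in CH (standard error 0.26, adjusted p = 0.000398 from limma) and -1.0 in REC (standard error 0.26, adjusted p = 0.0411), and the REC call was lost without any single NX or REC array, at -1.12 to -0.90, with median centring (-0.84), with pseudocount 1 and under the replicate block (adjusted p = 0.0662).

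**Figure D3:**
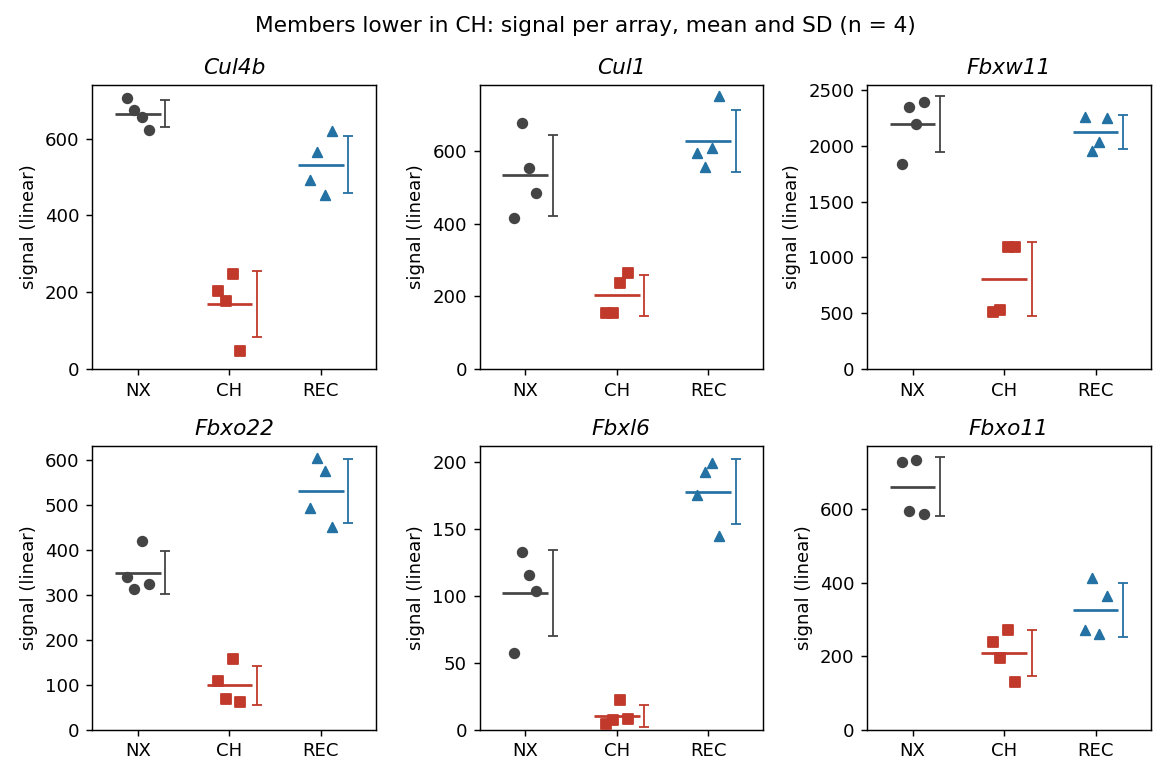
Signal (linear axis from 0) of 6 members called lower in CH, with a point for every array (NX circles, CH squares, REC triangles; 4 mice per group), a line at the group mean and a bar for the SD. All CH arrays lie below all NX arrays in the 6 genes; in Fbxo11 the REC arrays are below NX too, at a mean of 326 against 661.

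Fbxl5, the iron-sensing receptor that targets the iron regulatory protein Ireb2, gave 903, 693, 769 and 1109 in NX, 807, 271, 318 and 260 in CH, and 565, 565, 599 and 679 in REC. CH replicate 1 lay inside the NX range and the other CH mice far below it. On the log2 scale the change was -1.18 in CH (standard error 0.32, adjusted p = 0.0126 from limma), -0.84 and no longer called with quantile normalization, and -0.50 in REC (adjusted p = 0.476). Fbxl14, a receptor for the transcription factor Snai1, gave 1013, 1275, 1152 and 1154 in NX, 404, 294, 720 and 310 in CH, and 1313, 1334, 1151 and 1246 in REC, at -1.47 in CH (adjusted p = 0.00102 from limma) and 0.14 in REC.

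The other lower members were Fbxo21 at -1.86, Fbxl2 at -1.63, Fbxo25 at -1.35, Fbxo45 at -1.33 and Fbxl12 at -1.29, with REC changes of -0.22, 0.48, 0.50, -0.25 and -0.15 that were not called. Fbxo45 and Fbxl12 are named after their values were seen, and so are those other genes outside the rule given below where 5 or fewer were called. Fbxl12 overlapped NX on 1 CH array, replicate 3, and its call was lost with quantile normalization (-1.07). Over the mean of the probe sets of a gene, Fbxo21 (-0.99), Fbxw11 (-0.84) and Fbxo45 (-0.75) stayed under the 2-fold limit.

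The decreases went with those of lymphocyte markers. The 6 measured B cell markers had a summed signal of 15482 to 18705 in NX, 1933 to 10947 in CH and 18471 to 21532 in REC, with 5 of 6 lower in CH. The 6 measured T cell markers had 6187 to 8269, 1455 to 5691 and 9688 to 10443, with all 6 lower in CH. CH replicate 3 had the highest sums of the CH arrays in both (10950 and 5691). Its NK cell (2604) and monocyte (11560) sums were also the highest in CH, so this was not particular to B and T cells. The neutrophil sum was highest in replicate 1 (52180) and the platelet sum in replicate 4 (46410). Replicate 3 had the highest CH signal in 8 of the 13 lower members, with Cul4b, Fbxl6 and Fbxo22 among them. Against that order, Fbxo25 was lowest in replicate 3 (12.6), Fbxl5 was highest in replicate 1 (807), Fbxo25 in replicate 2 (31.6), and Cul1, Fbxl2 and Fbxw11 in replicate 4. The NK cell markers, at 2862 to 4941, 1293 to 2604 and 8155 to 12941, had 3 of 5 lower and Prf1 higher in CH, and 3 higher in REC. Of the neutrophil and platelet markers none was called in either comparison, and of the monocyte markers 1 was lower in CH, with sums in CH of 14716 to 52178, 26849 to 46409 and 3358 to 11557 against 18346 to 41556, 22567 to 41186 and 7158 to 11331 in NX. These counts depended on the scaling. With quantile normalization 2 neutrophil, 2 platelet and 2 monocyte markers were lower in CH, and with the hybridization control scaling 5 of 5, 5 of 6 and 4 of 5 were. No measured marker gene of these lists was at 0. The part of lymphocytes in the members' changes was not tested.

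Of the remaining cullins and partners, none was called in CH by its brightest probe set. Skp1, which ties F-box proteins to Cul1, gave 559, 958, 682 and 864 in NX, 790, 1402, 1336 and 1454 in CH, and 1176, 1071, 1251 and 1064 in REC. All REC mice and all CH mice but replicate 1 lay above NX, at log2 changes of 0.68 in CH (standard error 0.26, adjusted p = 0.0628 from limma) and 0.59 in REC (standard error 0.26, adjusted p = 0.242). The second Skp1 probe set was called higher in CH, at 1.25 (adjusted p = 0.00152). With the hybridization control scaling the first turned to -0.90 in CH.

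Cul3, the scaffold for BTB proteins, gave 1189, 980, 1048 and 915 in NX, 1421, 1240, 1019 and 1744 in CH, and 820, 819, 711 and 690 in REC. Its brightest probe set changed by 0.37 in CH (standard error 0.23, adjusted p = 0.253 from limma) and -0.43 in REC (adjusted p = 0.349), where all REC mice lay below NX. The other 4 probe sets of Cul3 had negative CH changes of -1.59 to -0.19, and the one at -1.59 was called lower (adjusted p = 0.023), so no direction was settled. Cul5, the scaffold of SOCS box ligases, likewise had 0.32 (adjusted p = 0.513) at its brightest probe set and -1.49 at another, which was called. Cul2, which works with Vhl, changed by -0.64 in CH (standard error 0.32, adjusted p = 0.158) and -0.55 in REC. Rbx1 was near the dim limit at means of 40 in NX, 59.5 in CH and 53.1 in REC, with a CH change of 0.26 (standard error 0.42). Cul7 and Skp2, the receptor for the cell cycle inhibitor p27, were dim, at -0.50 and -0.51 in CH, and were not called.

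**Figure D4:**
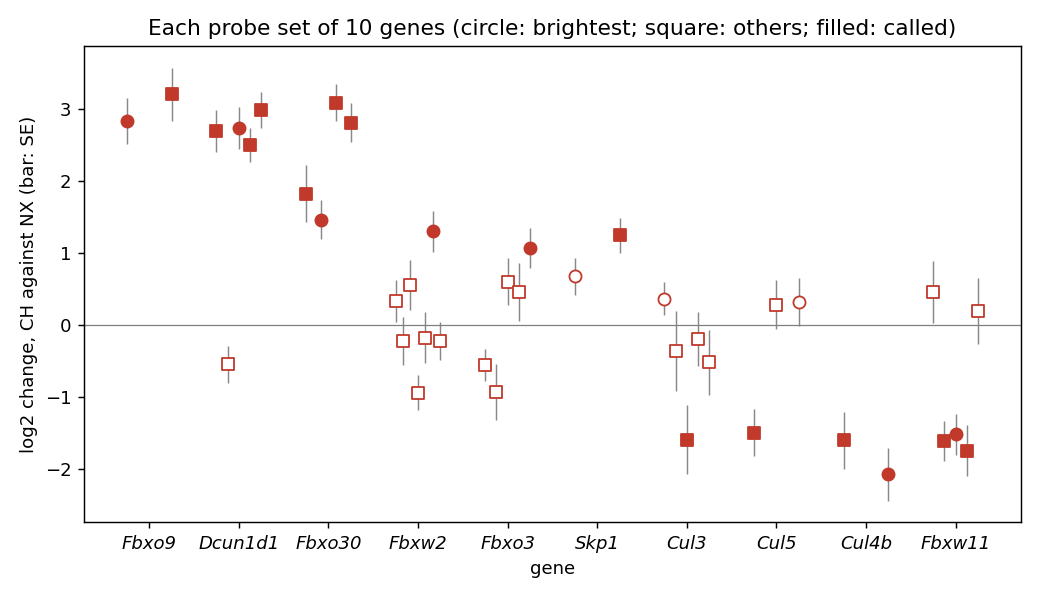
Log2 change in CH against NX of each probe set of 10 members, with the standard error as a bar; circles are the brightest probe set of a gene, squares the others, and filled points are called. Every called probe set of a gene points the same way, while the uncalled probe sets of Fbxw2 and Fbxo3 and those of Cul3 and Cul5 lie on both sides of 0; with the hybridization control scaling the brightest probe sets of Fbxo30, Fbxw2, Fbxo3, Skp1, Cul3 and Cul5 turned negative.

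Of 33 members with several probe sets, none had probe sets called in both directions in CH. Of the 10 called members among them, 5 had another probe set called the same way. A further 7 members were not called by their brightest probe set but had another one called, in Cul3 and Cul5 with the opposite sign, and 47 had no probe set called in CH.

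Fbxw7, the receptor for cyclin E, Myc and Notch1, gave 310, 373, 407 and 314 in NX, 398, 213, 296 and 105 in CH, and 171, 239, 174 and 84.5 in REC. The CH mice spread across and below the NX range and the REC mice lay below it. Neither the CH change of -0.58 (standard error 0.36, adjusted p = 0.266 from limma) nor the REC change of -1.07 (standard error 0.36, adjusted p = 0.117) was called, though the latter was when only the 8 arrays compared were fitted (adjusted p = 0.0273) and without CH replicate 4 (adjusted p = 0.0415). Fbxo5, also known as Emi1, an inhibitor of the anaphase-promoting complex, changed by -0.63 in CH (standard error 0.25, adjusted p = 0.0682) and -0.54 in REC. Its groups overlapped.

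After REC, 6 of the 78 members were lower than in NX (7.69%, against 1.79% of all genes) and 0 higher (against 2.50%), by limma. In either direction 17 had an unadjusted limma p under 0.05, with no share of all genes beside that count. The median change of the members was -0.04, that of all genes -0.02. All REC arrays lay below NX in 12 members and above in 7, where 8.88% and 12.6% of all genes did so. The 6 were Dcun1d1, Fbxo7, Fbxw2, Fbxo9, Fbxo30 and Fbxo11, and apart from Fbxo11 they are members that were higher in CH. The NX arrays are shared by both comparisons. The calls of Dcun1d1, Fbxo7 and Fbxw2 held without each array in turn. That of Fbxw2 was lost over the mean of its probe sets (-0.43), none of the other 6 being called. Median centring and pseudocount 1 each ended the calls of Fbxo9, Fbxo30 and Fbxo11, and Fbxo30 was also lost with quantile normalization (-0.92) and over the mean of its probe sets (-0.90). Leaving out any one of NX replicates 2, 3 and 4 and REC replicates 2, 3 and 4 ended that of Fbxo9 (-1.33 to -1.12), and any one of NX replicates 1, 2 and 3 and the same REC replicates ended that of Fbxo30 (-1.16 to -0.95). The count of 6 fell to 3 when any one of NX replicates 2 and 3 and REC replicates 2, 3 and 4 was left out. No share of all genes is given for these fits. With the hybridization control scaling 0 were lower and 19 higher, and Dcun1d1, Fbxo7 and Fbxw2 had -0.95, -0.84 and -0.83. That scaling moved the median of all probe sets in REC from -0.10 to 0.40.

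Between CH and REC, 11 members were higher in CH (14.1%, against 12.3% of all genes) and 14 were lower (17.9%, against 23.3%). Fbxo7 differed by 4.57 on the log2 scale, 23.7-fold (standard error 0.31, adjusted p = 1e-07 from limma), Dcun1d1 by 4.47 (22.2-fold), Fbxo9 by 4.12 (17.4-fold), Fbxw2 by 2.90, Cul4a by 2.81 and Fbxo30 by 2.54. In all 6 the CH and REC arrays did not overlap, and for Cul4a this includes CH replicate 1. Fbxl6 (-2.91), Fbxo22 (-2.32) and Fbxl2 (-2.11) had the largest differences in the other direction. Over the mean of the probe sets of a gene, Fbxw2 (0.52) and Fbxo22 (-0.83) were not called. The other higher members were Fbxw24 (1.69), Fbxo38 (1.56), Fbxo3 (1.55), Fbxw27 (1.18) and Fbxw18 (1.09), and the other lower members ran from Fbxo25 (-1.85) and Cul4b (-1.75) to Fbxl12 (-1.14) and Fbxo45 (-1.08), with Fbxo28 at -1.24 and Fbxo6 at -1.23. Fbxw18 was dim, and its call (adjusted p = 0.0465 from limma) was lost with quantile normalization (0.85), median centring (0.77), pseudocount 1, the 8 arrays compared, and without any one array except NX replicate 1 and CH replicate 3 (0.84 to 1.15). Fbxw27 lost its call with quantile normalization (0.88) and median centring (0.86), and Fbxo3 (0.51), Fbxo21 (-0.90), Fbxo28 (-0.59), Fbxo6 (-0.62) and Fbxo45 (-0.49) lost theirs over the mean of the probe sets. The call of Fbxl12 was lost without CH replicate 1 (-0.89) and with quantile normalization. That of Fbxo45 was lost without CH replicate 2 or 4 or REC replicate 2 (-0.98 to -0.95) and with quantile normalization, and that of Fbxo6 without CH replicate 3 or REC replicate 1, 2 or 3 (-1.19 to -0.84). Fbxo43, or Emi2, an inhibitor of the anaphase-promoting complex in meiosis, had a log2 change of -1.60 from REC to CH (adjusted p = 0.00185 from limma) without a call against NX, with 13.5, 8.56, 8.23 and 5.91 in CH and 36.2, 89.4, 76.5 and 48.7 in REC. With the hybridization control scaling the counts were 3 higher and 53 lower, with Fbxo7, Dcun1d1 and Fbxo9 still higher at 2.19, 2.08 and 1.70, and the median of all probe sets moved from 0.25 to -1.13.

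A ratio of 2 probe sets on the same array does not change when an array is multiplied by a factor, though it can under quantile normalization, and its level has no meaning, so that only its change between groups can be read. The pairs were chosen after the values were seen and are given with no test. The log2 ratio of Cul4a to Cul4b lay between -2.27 and -0.56 on the NX arrays, between 0.77 and 4.69 on the CH arrays and between -2.84 and -1.59 on the REC arrays. The mean ratio was thus 4.16 higher in CH than in NX. That of Dcun1d1 to Cul1 lay between 1.05 and 1.5 in NX, between 5.28 and 5.96 in CH and between -1.01 and -0.21 in REC. That of Skp1 to Cul1 lay between 0.31 and 0.83 in NX, 2.36 and 3.18 in CH, and 0.50 and 1.04 in REC. In these 3 pairs the NX and CH arrays did not overlap. The REC arrays overlapped NX in the first and the last pair and lay below NX in that of Dcun1d1 to Cul1.

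Genes that work with the members were taken from 6 fixed lists. Beside the counts given below, 9.08% of all genes were called higher and 19.5% lower in CH. In REC these shares were 2.50% and 1.79%. Whether any list differs from all genes was not tested. Of 7 measured F-box and cullin genes under other names, 3 were lower in CH and 0 higher, with a median of -0.79. They were Rnf7, the RING partner of Cul5 (-1.49), Kdm2b, an F-box histone demethylase (-1.32), and Anapc2, the cullin of the anaphase-promoting complex (-1.18, and -0.94 with quantile normalization, -1.0 and short of the limit without CH replicate 1). Rnf7 gave 400, 526, 580 and 384 in NX, 101, 153, 293 and 125 in CH, and 739, 992, 921 and 906 in REC. None of the 7 was called in REC.

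Of 12 measured genes of Nedd8 conjugation and removal, 2 were higher and 5 lower in CH, with a median of -0.66. Ube2f, the E2 enzyme that hands Nedd8 to Cul5, gave 531, 1202, 817 and 761 in NX, 5928, 7542, 5237 and 8618 in CH, and 857, 471, 552 and 456 in REC. It rose by 3.05 (standard error 0.30, adjusted p = 8.25e-06 from limma), the largest change on that list, and its REC change of -0.48 was not called. Nedd8 itself gave 1234, 2048, 1645 and 1943 in NX, 5974, 6758, 5801 and 12159 in CH, and 3465, 3320, 3294 and 2997 in REC. It rose by 2.10 in CH (adjusted p = 7.29e-05 from limma; 0.50 and not called with the hybridization control scaling), and all REC mice lay above NX at a change of 0.95 that was not called (adjusted p = 0.061). Both subunits of the enzyme that activates Nedd8 fell, Nae1 by 1.5 and Uba3 by 1.25 on the log2 scale. Uba3 was short of 2-fold with quantile normalization (-0.99). Dcun1d4 (-1.69) and Dcun1d5 (-1.56), relatives of Dcun1d1, also fell, as did Glmn (-1.60), which blocks the RING of Rbx1. None of the list was called in REC.

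Of the 9 subunits of the COP9 signalosome, 4 were lower and 2 higher in CH, with a median of -0.85. Cops8 (-1.61), Cops4 (-1.42), Gps1 (-1.09) and Cops7b (-1.01) fell, of which Gps1 (-0.99) and Cops7b (-0.85) were short of 2-fold with quantile normalization. Cops2 rose by 1.99 (adjusted p = 0.000234 from limma), 0.39 with the hybridization control scaling. Cops5, the catalytic subunit that removes Nedd8, rose by 1.12 (adjusted p = 0.02 from limma). It turned to -0.45 with the hybridization control scaling. It was no longer called without NX replicate 4 (1.06) or CH replicate 4 (0.82), or with median centring (0.97). Nor was it called over the mean of its probe sets (0.53) or when only the 8 arrays compared were fitted (1.12). Relative to the bulk of the array's signal, subunits of 1 complex thus moved in opposite directions on the same arrays. With the hybridization control scaling 0 subunits were called higher and 7 lower. Cops6 was the one member of the list called in REC, at 1.33. Any one of NX replicates 1 and 4 and REC replicates 1, 2 and 3, when left out, ended the call (1.14 to 1.34). So did pseudocount 1 (1.38) and the mean over its probe sets (0.81).

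Of 35 adaptors and receptors of the other cullins, 9 were higher and 9 lower in CH, with a median of 0.02. Both elongins rose, Elob by 3.02 (adjusted p = 4.32e-06 from limma) and Eloc by 2.63 (adjusted p = 1.07e-05), from 2301, 4759, 3938 and 4081 in NX to 23369, 28793, 27347 and 42224 in CH for Elob. Spop, a Cul3 receptor, rose by 2.23 (0.95 and not called with quantile normalization, 0.62 with the hybridization control scaling). Ddb1, the adaptor of Cul4a and Cul4b, gave 184, 242, 233 and 194 in NX, 769, 941, 582 and 1920 in CH, and 203, 245, 230 and 342 in REC, a CH change of 2.08 (adjusted p = 0.000296 from limma; 0.52 with the hybridization control scaling). Kctd10, a Cul3 receptor, had the largest decrease (-2.28), and Vhl, the receptor for HIF, and Keap1, the receptor for Nrf2, also fell, by 1.60 and 1.67 on the log2 scale. In REC, Dcaf12 (-1.93) and Spop (-1.20) were lower. The call of Spop was lost without NX replicate 4 (-1.05) or REC replicate 2 (-1.14) or 3 (-1.12). It was also lost with median centring (-1.04), pseudocount 1 (-1.21) and the hybridization control scaling (-0.39). Ddb1, Vhl and Keap1 were singled out after their values were seen.

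Of 26 known substrates of F-box ligases, 2 were higher and 11 lower in CH, with a median of -0.47. Cdt1, a replication licensing factor, changed by -2.38, Ireb2, the target of Fbxl5, by -2.29 and Nfkbia, the target of Fbxw11, by -2.12. Ireb2 gave 492, 519, 586 and 474 in NX, 107, 55.0, 174 and 68.3 in CH, and 320, 272, 245 and 241 in REC. Rrm2, a subunit of ribonucleotide reductase, rose by 2.06 (0.48 and not called with the hybridization control scaling). Atf4 rose by 1.83. Its CH change fell short of 2-fold after quantile normalization (0.88) and when arrays were scaled on their hybridization controls (0.23). These are transcript levels, and the proteins were not measured. None of the 26 was called in REC. Of 8 measured E2 enzymes and partners used by cullin ligases, 4 were higher and 2 lower in CH, with a median of 0.89. Ube2r2 rose by 2.21, from 4071, 6087, 5284 and 7503 in NX to 18664, 27819, 24491 and 36210 in CH, and fell in REC to 2426, 870, 1020 and 1691, a change of -2.01 (adjusted p = 0.00408 from limma). Ube2d3 rose by 2.14 and Arih2 by 1.54, while Ube2g1 changed by -1.64. With quantile normalization Ube2r2 and Ube2d3 had 0.46 and 0.68 in CH and were not called, and with the hybridization control scaling Ube2r2, Ube2d3 and Arih2 had 0.60, 0.53 and -0.06.

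**Figure D5:**
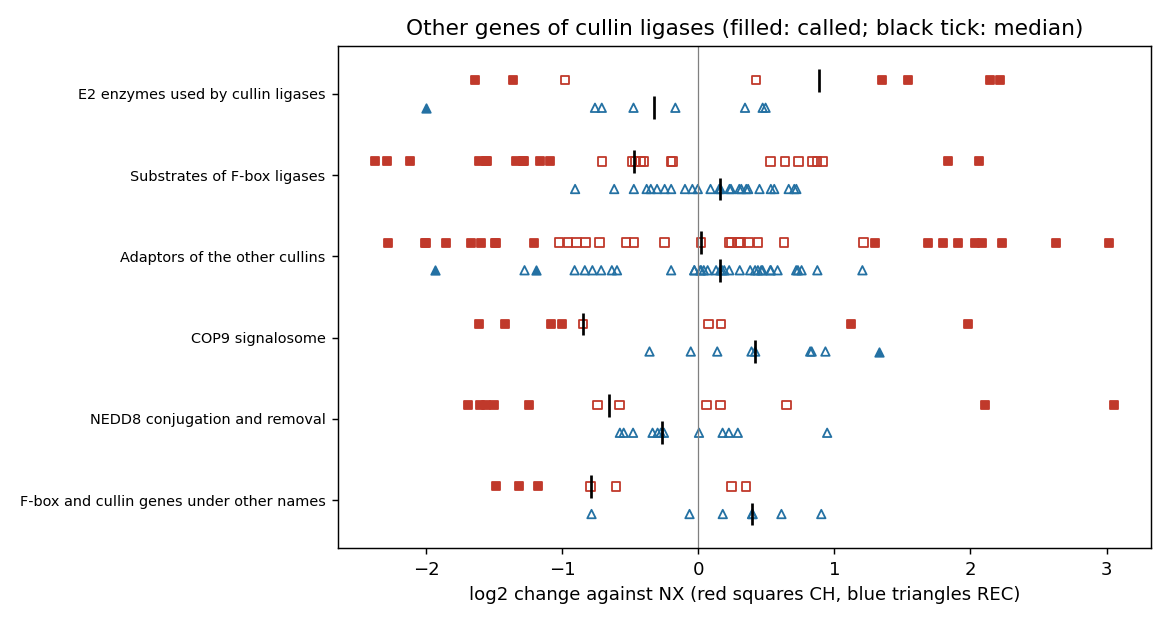
Log2 change against NX of each gene of 6 lists of cullin ligase genes, in CH (squares) and REC (triangles), with filled points called and a black tick at the median. Each list except that of genes under other names has genes called on both sides of 0 in CH, and medians run from -0.85 (COP9 signalosome) to 0.89 (E2 enzymes); with the hybridization control scaling all 6 CH medians were negative, at -2.26 to -0.67.

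With the hybridization control scaling the CH counts of these lists were 0 higher and 5 lower among the genes under other names, 1 and 8 for Nedd8, 0 and 7 for the COP9 signalosome, 2 and 21 for the adaptors, 0 and 18 for the substrates and 0 and 4 for the E2 enzymes. The REC counts were then 3 and 0, 2 and 0, 6 and 0, 11 and 1, 8 and 0, and 3 and 1. No share of all genes called under this scaling stands beside these counts.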

How the data were processed

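Blood RNA of 12 mice was hybridised to Affymetrix Mouse Genome 430 2.0 arrays. The deposited values are linear intensities, brought by the authors to a 2% trimmed mean of 150 on each array. The methods name GC-RMA, whose log2 scale these values do not have. They also name the GeneChip Operating System as the store of raw probe set intensities. Whether it gave the deposited values is not stated. The labels and the methods name different labelling kits. Signals were taken as log2(signal + 16) and fitted with limma 3.58.1 (R 4.3.3) over all 12 arrays with one mean for every group and 9 residual degrees of freedom, with Benjamini-Hochberg adjustment over 45101 probe sets. A call needs an adjusted p under 0.05 and a 2-fold change. Groups came from the sample titles. That fit was checked on simulated data with 200 changed probe sets. Genes were named from the platform annotation (34958 probe sets name 1 gene, 932 several and 9211 none), and 8 probe sets that name a member and another gene were not used. Named were all cullins and partners, F-box genes picked from the study's classes or for a textbook substrate (1 item is not reported here), the 10 largest called changes in each direction of each comparison, and from each list the 4 largest called changes. The members, lists and tests were chosen with earlier results of these data known. No arrays were identical, and the lowest correlation between arrays was 0.689. Same-numbered arrays were not taken as pairs, since the deviations of same-numbered CH and NX arrays correlated at anything from -0.203 to 0.436. Alternatives were quantile normalization, median centring, hybridization control scaling, pseudocount 1, leaving out dim probe sets, a trended and robust variance, fitting only the 8 arrays compared, a replicate block, the mean of the probe sets of a gene, and leaving out each array. Depth does not apply to arrays, and their number limits the precision. Promoters are from RefSeq (GRCm38.p6), which matched 59 of 78 members.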

Additional observations from a re-analysis of the deposited data

Results flagged for a closer look

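Of 111 groups of 4 arrays, 7 held an array far from the other 3, where chance gives about 1 in 20 groups. In CH replicate 1, Cul4a had a signal of 347 against 1189 to 1401 on the other CH arrays, Fbxw2 had 1450 against 2732 to 2750, and Skp1 had 790 against 1336 to 1454. Fbxo38 had 264 in NX replicate 4 against 437 to 469. Fbxo25 had 114 in NX replicate 2 against 58.3 to 63.5. Fbxl2 had 217 in REC replicate 3 against 332 to 356. Fbxo6 had 63.8 in REC replicate 4 against 113 to 124.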

How the results depend on the processing

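The scaling of the arrays had the largest effect. With the hybridization control scaling, members called higher and lower numbered 3 and 32 in CH against NX, 19 and 0 in REC against NX, and 3 and 53 in CH against REC. In CH against NX it turned Fbxo30 (-0.086), Fbxw2 (-0.30), Fbxo38 (-0.30), Fbxo3 (-0.50), Cul3 (-1.22), Cul5 (-1.14), Skp1 (-0.90), Rbx1 (-0.75), Cops5 (-0.45) and Arih2 (-0.059). In REC against NX it turned Fbxw24 (0.039), Fbxo38 (0.49), Fbxw27 (0.31), Cul4b (0.47), Fbxo21 (0.50), Fbxw11 (0.77), Fbxo3 (0.30), Cul2 (0.21), Cul3 (0.37), Cul5 (0.26), Skp2 (0.30), Fbxl5 (0.30), Fbxo5 (0.17), Fbxl12 (0.63), Fbxo45 (0.51) and Fbxw18 (0.34). In CH against REC it turned Fbxw22 (-0.34), Fbxo38 (-0.79), Fbxw27 (-0.11), Fbxo3 (-0.80), Cul3 (-1.59), Cul5 (-1.41), Skp1 (-2.30) and Fbxw7 (-1.69). The counts have no share of all genes beside them, and the cause was not tested.

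Median centring gave 1 higher and 3 lower in REC, pseudocount 1 gave 3 lower, and the 8 arrays compared gave 1 higher. No share of all genes called stands beside these counts, or beside those of the other alternatives below. They are therefore not read as particular to the members. With the mean of the probe sets of a gene, 8 were lower in CH than in REC, and Cul3 (-0.46), Cul5 (-0.30) and Fbxo6 (0.11) turned in CH against NX, Fbxo28 (-0.045) in REC against NX, and Cul2 (0.49) and Skp2 (0.21) in CH against REC. Median centring turned Fbxw27 (0.079), Fbxw11 (0.11), Fbxl12 (0.012) and Fbxw18 (0.16) in REC against NX and Skp1 (-0.23) in CH against REC. Quantile normalization turned Fbxw27 (0.074) and Fbxw18 (0.15) in REC against NX and Cul2 (0.21) in CH against REC, and pseudocount 1 turned Fbxw18 (0.45) in REC against NX.

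Leaving out each array gave 9 to 15 higher and 13 to 14 lower in CH against NX, 0 to 1 higher and 3 to 7 lower in REC against NX, and 10 to 15 higher and 12 to 15 lower in CH against REC. Signs then changed for Rbx1 (-0.041 to 0.66) and Fbxo6 (-0.36 to 0.27) in CH against NX, Fbxw18 (-0.15 to 0.24) and Fbxw11 (-0.13 to 0.00023) in REC against NX, and Fbxo5 (-0.27 to 0.017), Cul2 (-0.29 to 0.11), Rbx1 (-0.32 to 0.38) and Skp2 (-0.45 to 0.10) in CH against REC. The replicate numbers did not pair the samples, since the deviations of same-numbered CH and NX arrays correlated at -0.203 to 0.436. The replicate block gave 12 higher and 13 lower in CH against NX, 0 and 5 in REC against NX, and 13 and 14 in CH against REC.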
